A study of Mus musculus with 28 samples.

Results

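Microtubules are polymers of alpha- and beta-tubulin dimers, and a mouse carries several genes, the isotypes, for each partner. Neurons are known for a tubulin mix of their own, with Tubb3 (beta-III tubulin) as a standard neuronal marker and Tuba1a and Tubb2b as the abundant isotypes of the growing brain. Axons are filled with microtubules, and tubulin is made in the cell body and, as studies of isolated axons have shown, also locally. The 10 isotypes described here were taken by name: the alpha genes Tuba1a, Tuba1b, Tuba1c and Tuba4a and the beta genes Tubb2a, Tubb2b, Tubb3, Tubb4a, Tubb4b and Tubb5, out of 23995 genes in each file. All 10 were listed in every library, and all 10 passed the filter of each fit (1 FPKM or more in at least 2 of its libraries).

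Ribosome-bound mRNA was captured by axon-TRAP from C57BL/6 mice, offspring of RiboTag females, whose Rpl22 allele gains an HA tag after Cre recombination, and Pax6-alpha-Cre males. This Cre acts in progenitors of the peripheral retina, so that retinal ganglion cells (RGCs) keep the tag, as do other neurons that arise from the same progenitors. The superior colliculus (SC) holds the RGC axon terminals but not their cell bodies, and tagged ribosomes there were taken as axonal. Cre-negative littermates carry the same RiboTag allele without recombination, and their SC gives the mRNA that binds without a tag. The 24 libraries form 12 groups of 2, from the SC of Cre-positive mice, the SC of Cre-negative mice and the retina, each at E17.5, P0.5, P7.5 and adulthood. For 4 further adult libraries, 1 of each kind, SC of Cre-positive mice or retina was used either directly or after run-off. In run-off the lysate was incubated warm with rabbit reticulocyte lysate, harringtonine and 4E1RCat, so that elongating ribosomes finish while new initiation is blocked. Each library pooled tissue of more than 1 animal, and whole eyes were the source of the retina libraries.

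Replicates were uneven. Pearson's r of log2(FPKM + 1) between the 2 replicates of a group ran from 0.486 to 0.967, and it was above 0.95 in the 3 groups at P0.5 alone. Between 1162 and 8769 genes were above 0 in a library. Genes that every cell uses were among those listed at 0 (Ppia in both Cre-negative SC libraries at P0.5, for example), so a listed 0 is given below as such and not as absence. FPKM files hold no read totals, and the steps between low values did not give whole fragments (at the best-fitting depth, 38% to 70% of a library's low values lay within 0.1 of a whole number), so the depth of the 24 libraries could not be recovered. In the run-off libraries, 349395 reads with run-off stood against 3262914 without in SC, and 315009 against 4686284 in retina.

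The isotypes differ in how far reads can tell them apart. Tuba1b (chr15:98931425-98934565, minus strand, mm10), Tuba1a (chr15:98949837-98953703, minus) and Tuba1c (chr15:99029891-99038110, plus) are neighbours, with coding sequences 97.1% to 98.3% identical. Tubb2a (chr13:34074274-34078007, minus) and Tubb2b (chr13:34126748-34130466, minus) lie 48741 bases apart and share 96.5% of their coding bases, while other pairs of beta members share 81.4% to 84.6%. The last 30 coding bases of 5 beta members, stop codon included, are given because they encode the acidic tail in which tubulin isotypes are known to differ. They are shown 5′ to 3′ from GENCODE transcripts of GRCm38, and capitals mark the bases that differ from the partner named, for Tubb3 from Tubb2a.
Tubb2a, against Tubb2b: gaggaggaGgagggTgaAgatgaggcttga
Tubb2b, against Tubb2a: gaggaggaAgagggCgaGgatgaggcttga
Tubb4a, against Tubb4b: gaAgaggaggctgaAgaggaggtggcttaA
Tubb4b, against Tubb4a: gaGgaggaggctgaGgaggaggtggcttaG
Tubb3, against Tubb2a: gaggaATCggaAgCCCaGgGGCCCAAGtga
Over these 30 bases Tubb2a and Tubb2b differ at 3, Tubb4a and Tubb4b at 3, and Tubb3 and Tubb2a at 16. The marked bases leave the encoded amino acids the same between Tubb2a and Tubb2b and between Tubb4a and Tubb4b. Only the Tubb3 stretch encodes other amino acids than its partner.

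In stretches of 90 bases, 100% of the transcript was unique among annotated transcripts for Tubb3, Tubb4a and Tubb5. The share was 32.6% for Tuba1a, 24.6% for Tuba1b and 45.3% for Tuba1c, 60.6% for Tubb2a and 70.5% for Tubb2b, so how the authors' software divided reads between these copies bears on each of their values. Tubb4b (chr2:25222160-25224702, minus) was unique in 65.6%, with most of the rest shared with its processed copy Tubb4b-ps1. Tuba4a (chr1:75214228-75219865, minus) was unique in 53.1%, as the rest overlaps Stk16, a kinase gene on the opposite strand. No source used here states that strand was kept, so reads of Tuba4a and Stk16 in their overlap cannot be told apart. Tubb3 (chr8:123411424-123422015, plus) overlaps the annotated gene Gm20388 on its own strand, Tuba1a and Tuba1b overlap Gm49450 on theirs, and Tubb4b overlaps Fam166a on the other strand, which was listed at 0 in every P0.5 library. Tubb4a (chr17:57080066-57087782, minus) and Tubb5 (chr17:35833921-35838306, minus) overlap no other gene.

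Tubb5, the broadly expressed beta tubulin of dividing and young cells, was by far the highest of the 10. It lay between 1335 FPKM (adult Cre-positive SC, replicate 1) and 34558 FPKM (P0.5 retina, replicate 1) in 22 libraries and was listed at 0 in E17.5 retina replicate 1 and P0.5 retina replicate 2. Actb, the beta-actin gene, was listed at 0 in those libraries too and in P7.5 retina replicate 1. Tubb5 was abundant with or without the tag. At P0.5 it was at 12716 to 15482 FPKM in Cre-negative SC and at 18521 and 24063 FPKM in Cre-positive SC (difference 0.59, SE 0.62, adjusted p = 0.669, limma). It made up 98.4% of the FPKM of the beta members at the median over 24 libraries.

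Among the other 9, the median level over 24 libraries ran from Tuba1a (35.1 FPKM) and Tubb3 (28.7 FPKM) through Tubb2b (7.66), Tubb2a (7.03), Tuba1b (2.43), Tubb4a (1.74), Tubb4b (0.362) and Tuba1c (0.161) to Tuba4a, which was listed at 0 in 13 libraries. The ranges of these genes overlap along the whole order, and Tuba1c never exceeded 2.66 FPKM. The highest value of Tuba1a, Tubb2b, Tubb3, Tubb4a and Tubb4b was in Cre-positive SC at P0.5. In the retina, where the RGC bodies are, no isotype apart from Tubb5 exceeded 73.2 FPKM.

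**Figure D1:**
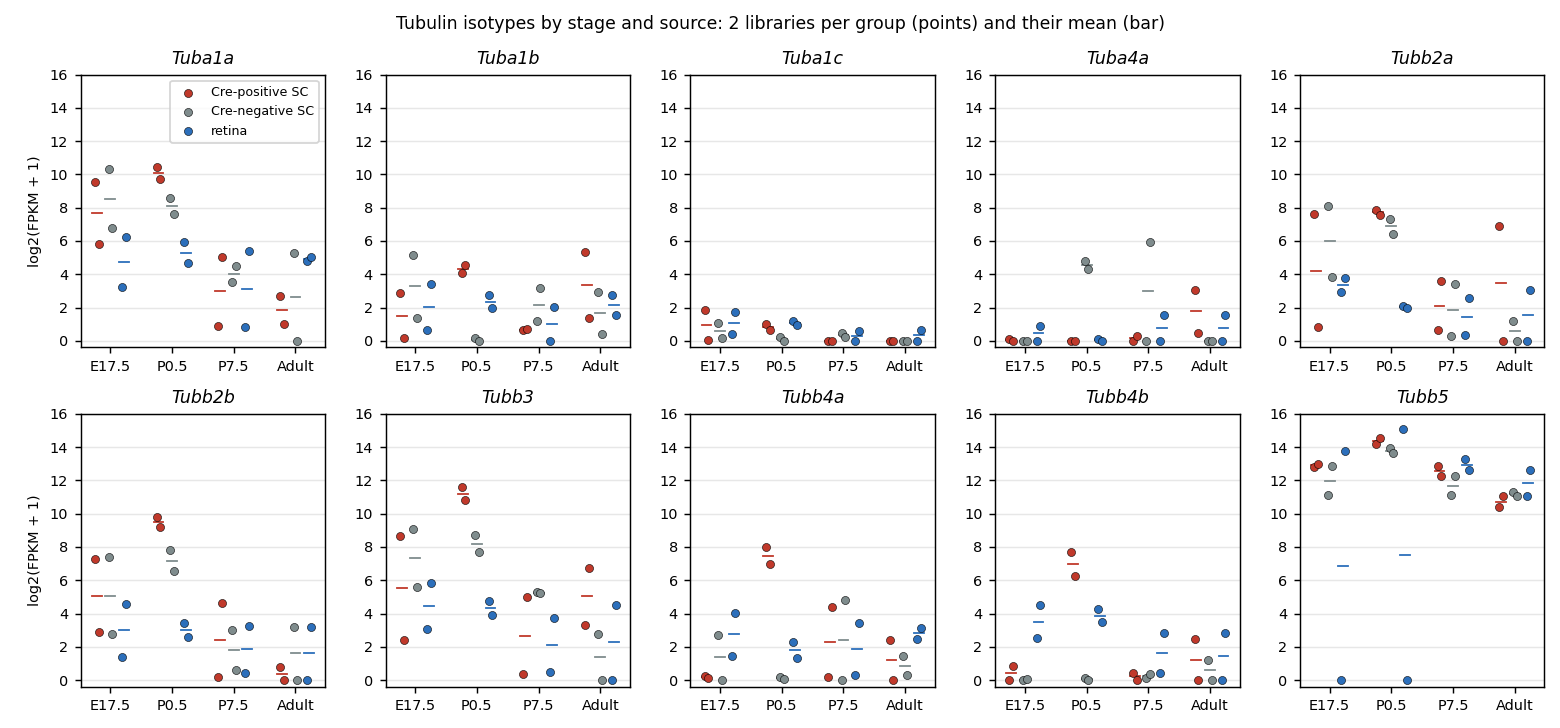
Level of each isotype as log2(FPKM + 1) in the 24 libraries, by stage, with Cre-positive SC in red, Cre-negative SC in grey and retina in blue. Points are the 2 libraries of a group and bars their mean on this scale. Tubb4a and Tubb4b stood out in the red points at P0.5 (76.5 FPKM or more) over grey points near 0, while Tubb5 was high throughout except in 2 retina libraries listed at 0.

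The question of Cre-positive against Cre-negative SC is which mRNAs depend on the tag. At P0.5 some isotypes passed the test and others did not, and isotypes were not tested against each other. Tubb4b, a widely expressed isotype also found in cilia, had 209 and 76.5 FPKM with Cre against 0.104 and 0 FPKM in the Cre-negative SC. Tubb4a, an isotype of brain neurons and myelinating cells, was at 257 and 123 FPKM against 0.144 and 0.0411 FPKM. For both genes the groups were far apart. On the log2(FPKM + 1) scale, limma gave a difference of 6.92 (SE 0.90, adjusted p = 0.000136) for Tubb4b and 7.36 (SE 1.79, adjusted p = 0.00895) for Tubb4a. Because the Cre-negative values lie near 0, these differences depend on the added 1 FPKM.

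Tuba4a, an alpha isotype of mature brain and muscle whose mRNA does not encode the terminal tyrosine, went the other way. At P0.5 it was listed at 0 in both Cre-positive SC libraries and was at 27.3 and 18.6 FPKM in the Cre-negative ones (difference -4.56, SE 1.53, adjusted p = 0.0429, limma, dependent on the added 1 FPKM). Its overlapping neighbour Stk16 showed the mirror image in the same libraries, with 29.5 and 14.6 FPKM in Cre-positive SC and a listed 0 in both Cre-negative ones. Since reads of the overlap could be given to either gene, the change of Tuba4a is uncertain. The call was also lost without any 1 of the 4 P0.5 SC libraries, with an adjusted p of 0.184 and 0.158 without Cre-positive replicate 1 and 2 and of 0.171 and 0.121 without Cre-negative replicate 1 and 2.

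The isotypes that are most abundant in young neurons were carried in Cre-negative SC too. Tubb3 was at 3059 and 1804 FPKM in Cre-positive SC at P0.5, where it ranked 15 and 26 among all genes, and at 421 and 204 FPKM in Cre-negative SC. Tubb2b was at 893 and 575 FPKM against 221 and 94.7 FPKM, and Tuba1a at 1381 and 862 FPKM against 388 and 193 FPKM. Both Cre-positive values lay above both Cre-negative ones for all 3 genes, but the differences of 3.0 (SE 2.23, adjusted p = 0.421) for Tubb3, 2.30 (SE 2.09, adjusted p = 0.565) for Tubb2b and 1.99 (SE 2.05, adjusted p = 0.649) for Tuba1a did not pass limma's test, whose error is shared with the more scattered stages. Fitted on the 4 P0.5 SC libraries alone, Tubb3 passed (adjusted p = 0.0372).

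Tuba1b, the housekeeping alpha isotype, was at 15.9 and 22.8 FPKM in Cre-positive SC against 0.107 and 0 FPKM (difference 4.25, SE 1.67, adjusted p = 0.0794), and it passed in the P0.5 libraries alone (adjusted p = 0.0080). Tubb2a was at 234 and 188 FPKM against 159 and 85.8 FPKM (difference 0.84, SE 2.64, adjusted p = 1), the narrowest ratio among the neuronal beta genes. Tuba1c stayed below 1 FPKM in all 4 libraries.

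In counts at P0.5, 2 of 10 isotypes were higher and 1 was lower with Cre, where 28.1% of the 5983 genes tested were higher and 4.35% lower, so the share of isotypes called higher was not above that of all genes. Both Cre-positive values lay above both Cre-negative values for 9 of 10 isotypes, as they did for 51.3% of all genes. The median difference was 2.14 over the isotypes and 0.78 over all genes. Cre-positive libraries at P0.5 also listed more genes above 0 (4620 and 4923) than Cre-negative ones (2162 and 2546). The call of Tubb4b passed under each of 10 alternative settings, with adjusted p between 0.000122 and 0.00864. That of Tubb4a was lost without Cre-positive replicate 1 (adjusted p = 0.0798), Cre-negative replicate 1 (0.0509) or Cre-negative replicate 2 (0.0524) and with TPM scaling (0.0530), in each case with a difference of at least 6.83.

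Markers of other cells were summed in the same libraries. Photoreceptor markers (6 genes) were listed at 0 in all 4 SC libraries at P0.5. They summed to only 2.03 and 0.651 FPKM in retina at that age, so their zeros in SC say little. The RGC list (7 genes) summed to 288 and 105 FPKM in Cre-positive SC, to 757 and 200 FPKM in Cre-negative SC and to 4043 and 1231 FPKM in retina, and Rbpms, Sncg and Thy1 were listed at 0 in both Cre-positive libraries. SC neuron markers (5 genes) summed to 531 and 176 FPKM against 1134 and 316 FPKM, with Gad1, Gad2 and Slc32a1 listed at 0 in all 4. The astrocyte list (6 genes, Gfap and Aqp4 at 0) was at 60.8 and 51.9 FPKM in Cre-positive SC and 15.9 and 38.3 FPKM in Cre-negative SC, and its member Aldh1l1 was higher (difference 4.30, SE 0.94, adjusted p = 0.00468, limma). Oligodendrocyte markers (6 genes, 5 of them at 0 in all 4 libraries) were at 84.7 and 86.6 against 86.2 and 48.1 FPKM. The part of other cells in the tubulin values was not tested.

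**Figure D2:**
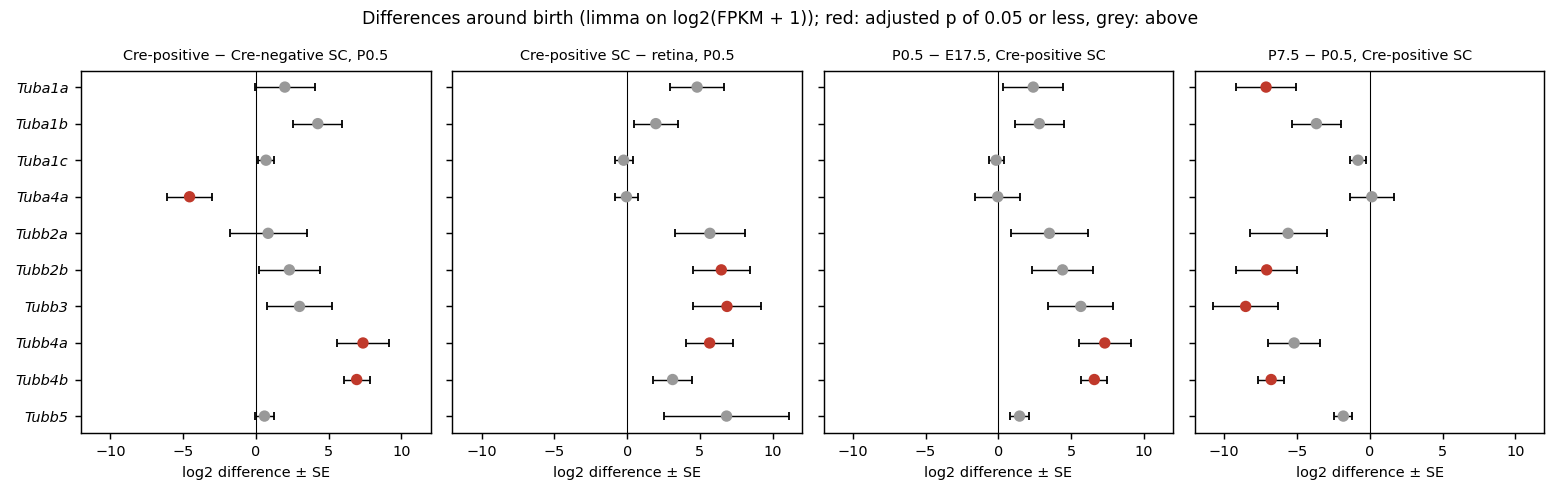
Difference of each isotype in 4 comparisons around birth, on the log2(FPKM + 1) scale, with bars of 1 SE from limma and red points for an adjusted p of 0.05 or less. Tubb4a and Tubb4b were higher in P0.5 Cre-positive SC than in Cre-negative SC and than at E17.5, while Tubb3 and Tubb2b were called against retina and against P7.5 (red points), as was Tubb4a against retina and Tuba1a and Tubb4b against P7.5.

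At the other stages no isotype passed the test for Cre. At E17.5, P7.5 and adulthood, 0 of 10 passed limma's test and 0 had an unadjusted p under 0.05, and 1.57%, 0% and 0.15% of the 5983 genes passed. Both Cre-positive values lay below both Cre-negative ones at P7.5 for Tuba1b, Tuba1c and Tubb3 (3 of 10, and 6.69% of all genes) and in adults for Tubb5 (1 of 10 and 3.93%), and above them in adults for Tuba4a and Tubb3 (2 of 10 and 3.88%). Without P7.5 Cre-negative replicate 1, in which it was listed at 0, the difference of Tuba4a was -5.81 at P7.5 and -2.14 averaged over the stages. That fit leaves a single P7.5 Cre-negative library, with Tuba4a at 61.0 FPKM, and the overlap with Stk16 keeps these values uncertain too. Replicates of the abundant isotypes were far apart at E17.5. Tubb3 was at 403 and 4.36 FPKM in Cre-positive SC at E17.5, and at 532 and 46.7 FPKM in Cre-negative SC. Tuba1a showed the same at E17.5, with 754 and 56.4 FPKM in Cre-positive and 1261 and 107 FPKM in Cre-negative SC. In both groups replicate 1 was the high one, and the groups overlapped. Averaged over the 4 stages, Tubb4b was called higher (difference 1.98, SE 0.45, adjusted p = 0.0167), as were 10.1% of all genes called higher, but not with a pseudocount of 0.1 (adjusted p = 0.0982) or with TPM scaling (0.113).

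Stage by stage, Tubb4a and Tubb4b rose in Cre-positive SC between E17.5 and P0.5. At E17.5, Tubb4a was at 0.190 and 0.0754 FPKM and Tubb4b at 0 and 0.763 FPKM, below 1 FPKM in each library. The increase to P0.5 was 7.31 (SE 1.79, adjusted p = 0.0104) for Tubb4a and 6.59 (SE 0.90, adjusted p = 0.000220) for Tubb4b. Tubb4a no longer passed without P0.5 Cre-positive replicate 1 (6.78, adjusted p = 0.0919) or with TPM scaling (0.0701). In pooled tissue, a change in the amount of tagged axon and a change in the mRNA within it cannot be told apart. Tubb3 was at 403 and 4.36 FPKM before and at 3059 and 1804 FPKM after (difference 5.66, SE 2.23, adjusted p = 0.0937), and Tubb2b at 157 and 6.30 FPKM before and 893 and 575 FPKM after (adjusted p = 0.168). Tubb3 passed without E17.5 Cre-positive replicate 1, its higher value before (8.78, adjusted p = 0.0191). In all, 2 of 10 isotypes rose and 0 fell, against 25.1% and 1.81% of all genes. Some markers of other cells rose in the same step, with Aldh1l1 of astrocytes at 4.31 (adjusted p = 0.00526, limma) and Cnp of oligodendrocytes at 5.45 (adjusted p = 0.0108). Nefl of the RGC list rose as well (4.83, adjusted p = 0.0299, limma), but that list summed to 98.9 and 3507 FPKM at E17.5 and 288 and 105 FPKM at P0.5. The SC neuron list went from 396 and 586 to 531 and 176 FPKM. The summed astrocyte list was at 27.8 and 37.0 FPKM at E17.5 and 60.8 and 51.9 FPKM at P0.5, with Gfap and Aqp4 at 0 throughout, and the oligodendrocyte list went from 0.0601 and 2.72 to 84.7 and 86.6 FPKM, with all its genes but Cnp at 0. Their part in the tubulin values was not tested.

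Whether this step differed from that in Cre-negative SC was tested by the interaction of stage and Cre. It passed for Tubb4b (6.55, SE 1.27, adjusted p = 0.00312) and Tubb4a (8.55, SE 2.53, adjusted p = 0.0282), and 23.9% of genes passed in this direction. With TPM scaling neither passed (adjusted p = 0.0543 for Tubb4b and 0.114 for Tubb4a). Tubb4b passed under the other 12 of 13 alternatives and Tubb4a under 3 of 13. In Cre-negative SC, Tubb4b was at 0 and 0.0488 FPKM at E17.5 and 0.104 and 0 FPKM at P0.5, and Tubb4a was at 5.67 and 0 FPKM and then 0.144 and 0.0411 FPKM. The interaction of Tubb4a was lost when any of 7 of the 8 libraries was left out (adjusted p between 0.0607 and 0.110), and with a pseudocount of 0.1 (0.0849) or no filter (0.0520), but not without E17.5 Cre-negative replicate 2, the library in which it was listed at 0. Without that library Tuba1b passed as well (7.90, adjusted p = 0.0280, limma).

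From P0.5 to P7.5 the pattern turned, and 4 of 10 isotypes fell in Cre-positive SC, where 29.2% of all genes fell. Tubb3 was at 0.281 and 30.9 FPKM at P7.5 (difference -8.52, SE 2.23, adjusted p = 0.0145). Tuba1a was at 0.860 and 32.0 FPKM (difference -7.12, SE 2.05, adjusted p = 0.0230), and Tubb2b at 0.150 and 23.5 FPKM (difference -7.08, SE 2.09, adjusted p = 0.0262). Tubb4b, at 0.366 and 0 FPKM, fell by 6.77 (SE 0.90, adjusted p = 0.000179). Both values of P0.5 lay above both of P7.5 for 9 of 10 isotypes, all but Tuba4a, and for 51.8% of all genes. In the same libraries the astrocyte list went from 60.8 and 51.9 to 300 and 672 FPKM, with Gja1 higher (4.82, adjusted p = 0.00230, limma). Nefl was lower (-4.81, adjusted p = 0.0289, limma), while its RGC list went from 288 and 105 to 176 and 457 FPKM. The oligodendrocyte list went from 84.7 and 86.6 to 26.6 and 63.8 FPKM, and the SC neuron list from 531 and 176 to 219 and 182 FPKM. The part of other cells in this step was not tested.

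Tubb4a, at 0.128 and 20.3 FPKM, and Tubb5, at 7459 and 4825 FPKM, lay just beyond the threshold (differences -5.19 and -1.81, adjusted p = 0.0507 and 0.0503, limma), and Tubb4a passed without P7.5 replicate 2 (-7.31, adjusted p = 0.0250). The median difference was -5.40 over the isotypes and -1.19 over all genes. The calls of Tuba1a, Tubb2b and Tubb3 were lost without P0.5 replicate 1 (adjusted p = 0.146, 0.155 and 0.112), P0.5 replicate 2 (0.0902, 0.0974 and 0.0676) or P7.5 replicate 1 (0.170, 0.192 and 0.121), while that of Tubb4b passed under each of 9 alternatives.

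In Cre-negative SC the levels of these abundant isotypes were also lower at P7.5. Tubb3 went from 421 and 204 FPKM at P0.5 to 37.5 and 37 FPKM at P7.5, Tuba1a from 388 and 193 to 10.4 and 22 FPKM, and Tubb2b from 221 and 94.7 to 0.541 and 7.08 FPKM, and the groups did not overlap. Such a separation was seen for 5 of 10 isotypes and 17.7% of all genes. The interaction passed for Tubb4b only (-6.94, SE 1.27, adjusted p = 0.00256, with 18.7% of genes called lower), and was -5.58 (SE 3.16, adjusted p = 0.282) for Tubb3 and -7.48 (SE 2.53, adjusted p = 0.0610) for Tubb4a. The interaction of Tubb4a was -9.59 without P7.5 Cre-positive replicate 2 and -9.89 without P7.5 Cre-negative replicate 1. That of Tuba4a was 4.70 without P7.5 Cre-negative replicate 2, in which it was at 61.0 FPKM against a listed 0 in replicate 1. Each of these fits leaves a single library in a group, and the overlap with Stk16 keeps Tuba4a uncertain.

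Between P7.5 and adulthood no isotype passed in Cre-positive SC or in the interaction (1 and 0 of 10 at an unadjusted p under 0.05, limma), and 0.0836% and 0% of genes did. Without P7.5 Cre-negative replicate 1, which leaves a single library in that group, the interaction of Tuba4a was 7.59. Its overlap with Stk16 keeps this value uncertain. Adult levels of single isotypes rested on single libraries. Tubb2a was at 119 FPKM in adult Cre-positive replicate 1 and at 0 in replicate 2, Tubb3 at 9.08 and 107 FPKM, and Tuba1b at 39.7 and 1.57 FPKM. In Cre-negative SC of the same age, Tubb3 was at 5.82 and 0 FPKM and Tuba1a at 38.2 and 0 FPKM, while Tubb5 was still at 2556 and 2149 FPKM.

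In the retina no isotype passed at any of the 3 steps (0 of 10 at an unadjusted p under 0.05, limma, with 0%, 0.0735% and 0% of 4080 genes called). Tubb3 was at 7.32 and 57.2 FPKM at E17.5, 26.5 and 13.9 FPKM at P0.5, 0.412 and 12.4 FPKM at P7.5, and 0 and 22 FPKM in adults. Tuba1a was at 26.6 and 31.8 FPKM in adult retina against 59.5 and 24.2 FPKM at P0.5. Tubb4b was at 18.0 and 10.3 FPKM in the retina at P0.5, against 0.104 and 0 FPKM in Cre-negative SC.

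Set against the retina at the same age, 3 of 10 isotypes were higher in Cre-positive SC at P0.5, where 32.7% of 6321 genes were. Tubb3 was at 3059 and 1804 FPKM in SC and 26.5 and 13.9 FPKM in retina (difference 6.86, SE 2.35, adjusted p = 0.0412). Tubb2b was at 893 and 575 against 9.87 and 5.05 FPKM (6.47, SE 1.94, adjusted p = 0.0221), and Tubb4a at 257 and 123 against 3.96 and 1.51 FPKM (5.67, SE 1.59, adjusted p = 0.0159). Cre-negative SC was above the retina as well for Tubb3 (421 and 204 FPKM) and Tubb2b (221 and 94.7 FPKM), but not for Tubb4a (0.144 and 0.0411 FPKM). Some markers of SC cells were higher in SC as well, with Gata3 at 6.12 (adjusted p = 0.00161), Aldh1l1 at 4.32 (adjusted p = 0.00248) and Cnp at 4.35 (adjusted p = 0.0134, all limma). Gja1 of the astrocyte list was lower (-2.89, adjusted p = 0.0394, limma), and that list summed to 60.8 and 51.9 FPKM in SC and 132 and 96.9 FPKM in retina. Nefl (4.05, adjusted p = 0.0338) and Pou4f2 (2.29, adjusted p = 0.0270, both limma) were higher in SC. The RGC list they belong to summed to 288 and 105 FPKM in SC and 4043 and 1231 FPKM in retina. The SC neuron list summed to 531 and 176 FPKM in SC and 5.42 and 2.13 FPKM in retina. The lens list (4 genes) summed to 0 and 1.62 FPKM in SC and 378 and 283 FPKM in retina. Its members Cryaa (-6.83, adjusted p = 0.0149) and Cryga (-6.82, adjusted p = 0.0236, both limma) were lower in SC. The part of SC cells and of other eye tissue in these tubulin differences was not tested.

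Tuba1a (1381 and 862 against 59.5 and 24.2 FPKM, adjusted p = 0.0658), Tubb2a (234 and 188 against 3.23 and 2.98 FPKM, adjusted p = 0.0947) and Tubb4b (209 and 76.5 against 18.0 and 10.3 FPKM, adjusted p = 0.1) were also apart without overlap, as was Tuba1b. Such a separation held for 7 of 10 isotypes and 53.7% of all genes, and the 4 P0.5 libraries alone called all 7. Cre-negative SC also lay above the retina for Tuba1a (388 and 193 FPKM) and Tubb2a (159 and 85.8 FPKM). It did not for Tubb4b (0.104 and 0 FPKM) or Tuba1b (0.107 and 0 FPKM). In the shared fit, the calls of Tubb2b and Tubb3 were lost without any 1 of the 4 libraries (adjusted p between 0.0733 and 0.190), and that of Tubb4a without SC replicate 1 (0.112), retina replicate 1 (0.0533) or retina replicate 2 (0.102). With a pseudocount of 0.1 or TPM scaling none of the 3 passed. Tubb5 passed as higher without retina replicate 1 (adjusted p = 0.0187), which leaves the library in which it was listed at 0. At E17.5, P7.5 and adulthood, 0 isotypes passed (1, 0 and 0 at an unadjusted p under 0.05, limma), as did 1.31%, 0.0158% and 0.0949% of genes.

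Tuba1a made up 98.8% and 97.4% of the FPKM of the 4 alpha members in Cre-positive SC at P0.5, and 88.7% at the median over the 24 libraries, and it was the leading alpha isotype in 20 of them. In adult Cre-positive SC, Tuba1b led in both libraries. Among the beta members without Tubb5, Tubb3 held 65.7% and 65.2% in Cre-positive SC at P0.5, followed by Tubb2b (19.2% and 20.8%), while Tubb4a held 5.53% and 4.45% and Tubb4b 4.49% and 2.76%. Tubb3 led this set in 18 of 24 libraries. Shares of near-identical copies such as Tuba1a and Tuba1b rest on the authors' division of shared reads.

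**Figure D3:**
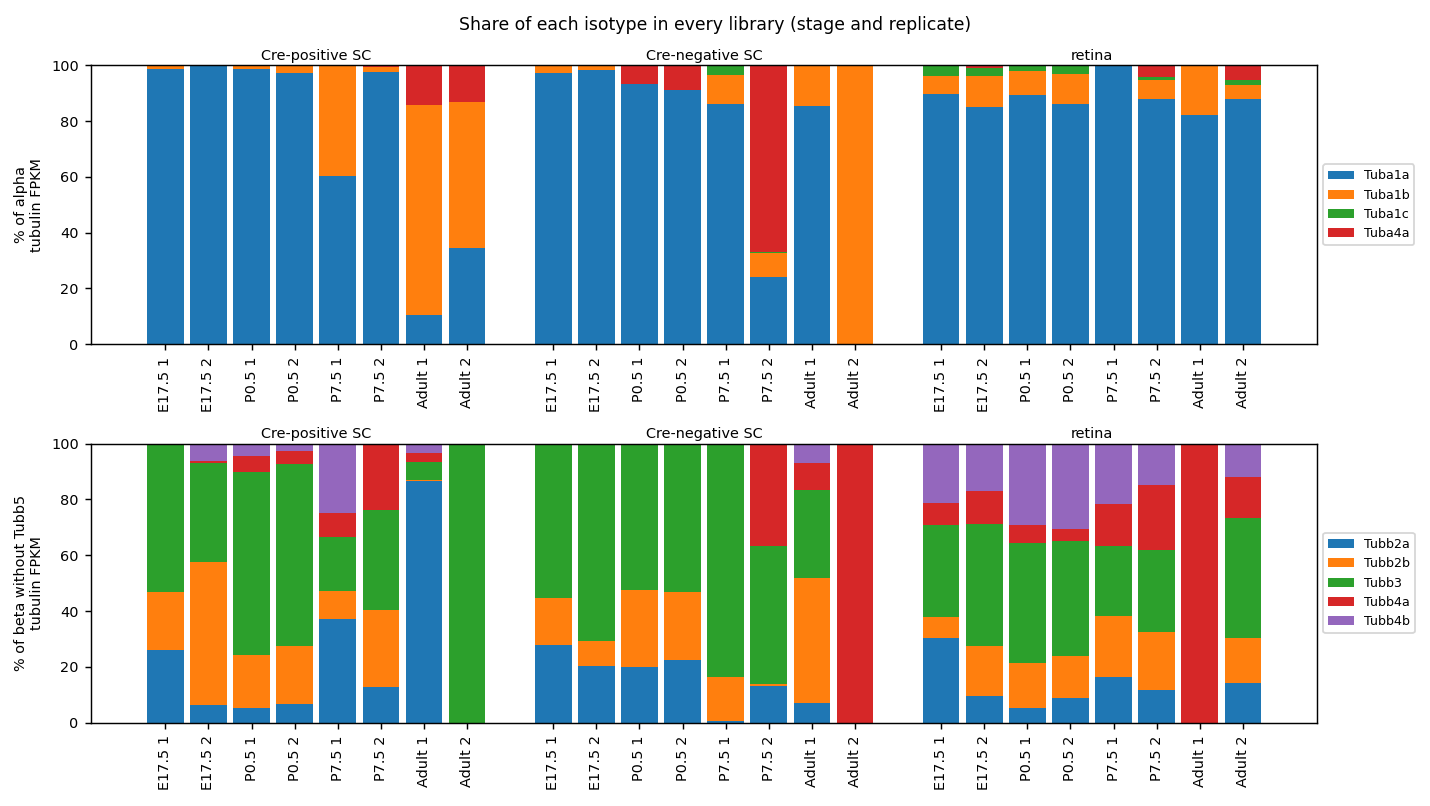
Share of each isotype in the summed FPKM of the alpha members (upper panel) and of the beta members without Tubb5 (lower panel), in percent, 1 bar per library ordered by source, stage and replicate. Tuba1a fills most of the alpha bars apart from adult Cre-positive SC and 2 Cre-negative libraries, and Tubb3 is the leading beta isotype of the lower panel in 18 of 24 bars.

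Over the 24 libraries, the 5 genes most like Tuba1a among 4641 genes (Pearson's r of log2(FPKM + 1)) included Tubb2b (0.91), Tecr (0.90), Fxyd6 (0.90) and Eef2 (0.89). Those most like Tubb3 were Eef2 (0.87), Tubb2b (0.87), Dpysl3 (0.87), Rps2 (0.86) and Gdpd1 (0.85). Tubb2b was thus the only isotype in either set of 5. Among the isotypes, Tubb4a and Tubb4b had an r of 0.74 and Tuba4a and Tubb4b one of -0.17. The libraries fall into 12 groups of 2 and are not independent points, so these values are a description.

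Newly made tubulin is folded by prefoldin and the ring-shaped chaperonin CCT, and dimers are assembled with tubulin cofactors (Tbca to Tbce) and Arl2. Of 23 folding genes, 13 could be tested in SC. At P0.5, 7 of them were higher and 1 was lower in Cre-positive than in Cre-negative SC, where 28.1% and 4.35% of all genes were. Cct3 was at 194 and 109 FPKM in Cre-positive SC and listed at 0 in both Cre-negative libraries (7.19, SE 1.20, adjusted p = 0.000843, dependent on the added 1 FPKM). Cct7 was at 129 and 57 FPKM against a listed 0 in both (6.44, adjusted p = 0.00354), and Cct4 (5.16, adjusted p = 0.00922) and Cct2 (5.48, adjusted p = 0.0107), further CCT subunits, were also higher. The gene called lower was Vbp1, a prefoldin subunit (-6.60, SE 1.86, adjusted p = 0.0196, limma), listed at 0 in both Cre-positive libraries and at 167 and 54.9 FPKM in the Cre-negative ones. Vbp1 is named beyond the 4 genes of smallest p, after its values were seen.

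From E17.5 to P0.5 in Cre-positive SC, 5 of the 13 folding genes rose and 0 fell, against 25.1% and 1.81% of all genes. From P0.5 to P7.5, 7 fell and 0 rose, against 29.2% and 0.501% of all genes, Cct3, Cct7, Cct4 and Cct5 with the smallest p. In the comparison with the retina at P0.5, 7 of 17 tested were higher, against 32.7% of all genes. The median difference between Cre-positive and Cre-negative SC at P0.5 was 3.93 over the 13 genes, against 0.78 over all genes.

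Tubulin is also modified after assembly. Ttl, the ligase that puts back the terminal tyrosine of alpha tubulin, was at 21.5 and 14.2 FPKM in Cre-positive SC at P0.5 and at 0.405 and 0.0958 FPKM in Cre-negative SC (3.90, SE 0.76, adjusted p = 0.00239, limma). It rose from E17.5 (4.19, adjusted p = 0.00169) and fell to P7.5 (-2.80, adjusted p = 0.0177). Ttll1, of the polyglutamylase family, was at 0.154 and 0.116 FPKM against 167 and 38.8 FPKM (-6.17, SE 1.75, adjusted p = 0.02). These were the only calls among 9 of 21 modifying genes that could be tested for Cre at P0.5. Of 10 further tubulin genes, 2 could be tested, Tubg1 and Tubg2 of the gamma-tubulin nucleating complex. Tubg1 was at 81.2 and 48.2 FPKM in Cre-positive and at 68.8 and 51.3 FPKM in Cre-negative SC at P0.5, and neither gene was called for Cre. In Cre-positive SC, Tubg1 rose from E17.5 to P0.5 (5.99, adjusted p = 0.00191) and fell to P7.5 (-5.99, adjusted p = 0.00186, both limma). At P0.5, Tubg1 (4.92, adjusted p = 0.00303) and Tubg2 (4.56, adjusted p = 0.00116, both limma) were higher in Cre-positive SC than in retina.

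The run-off libraries ask whether the captured mRNA was on elongating ribosomes, since such mRNA should be lost when ribosomes run off. There was 1 library of each kind, so no test of the conditions is possible, and intervals cover counting error only. None of them was from Cre-negative SC, and no isotype passed limma's test for Cre in adults. The part of mRNA bound without a tag in the SC run-off reads was therefore not tested. In adult SC, each of the 9 isotypes with reads had fewer of them with run-off, as had 90% of the 4325 genes with at least 10 reads in both libraries together. Tuba4a went from 426 reads to 0 and Tubb4b from 183 to 0, which against a floor of 3 reads is at least 142-fold and at least 61-fold fewer. A fall to 0 was common, as 49.1% of the 4325 genes had 0 reads with run-off. Tubb4a went from 642 to 34 reads, Tuba1b from 163 to 2, Tubb2b from 56 to 4, Tubb2a from 512 to 52 and Tuba1a from 418 to 48. Tubb3 kept the largest part, with 242 reads without and 84 with run-off (34.7%), and Tubb5 went from 14897 to 2974 (20%). Stk16, which shares reads with Tuba4a, went from 440 to 0.

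Since the SC library with run-off held 10.7% of the reads of the other, reads were also scaled to the library total (CPM), which gives another order. Tubb3 was at 74.2 CPM without and 240.4 CPM with run-off, a ratio of 3.24 (exact 95% interval 2.50 to 4.17), and Tubb5 at 4566 and 8512 CPM, a ratio of 1.86 (1.79 to 1.94). Tuba1a (ratio 1.07, 0.778 to 1.45), Tubb2a (0.948, 0.699 to 1.26) and Tubb2b (0.667, 0.176 to 1.81) had intervals that include 1. Tubb4a was lower (0.495, 0.340 to 0.698), as was Tuba1b (0.115, 0.0138 to 0.421). In CPM and against the same floor of 3 reads, Tuba4a was at least 15.2-fold and Tubb4b at least 6.53-fold lower, and the exact intervals of their ratios reached up to 0.0812 and 0.190. Over 2-fold lower were 4 of 9 isotypes, against 52.1% of genes, and over 2-fold higher was 1, against 17.9%. The study compared reads unscaled. Scaling sets both libraries to the same total, so a ratio above 1 means a smaller loss of reads than in the library as a whole, not a gain.

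In adult retina, each of the 8 isotypes with at least 10 reads had fewer with run-off, as had 93.2% of 7019 genes. Tubb5 went from 30853 to 2124 reads (6.88%), close to the 6.72% of all reads that the library with run-off held. Tuba1a went from 189 to 37 reads and Tuba1b from 76 to 22, and in CPM both were higher with run-off, with ratios of 2.91 (1.99 to 4.16) and 4.31 (2.55 to 7.0). Tubb4a went from 164 to 4 reads, a CPM ratio of 0.363 (0.0977 to 0.947). Over 2-fold higher in CPM were thus 2 of 8 isotypes, against 23.6% of genes, and over 2-fold lower was 1, against 16.6%. Tubb3 (46 reads), Tubb2a (84), Tubb4b (41) and Tuba4a (14) had 0 reads with run-off, as had 52.3% of the 7019 genes. In CPM, the exact interval of the ratio reached up to 0.668 for Tubb2a. It reached up to 1.24 for Tubb3, 1.40 for Tubb4b and 4.48 for Tuba4a and so includes 1, and a loss of these 3 was not detectable at this depth.

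**Figure D4:**
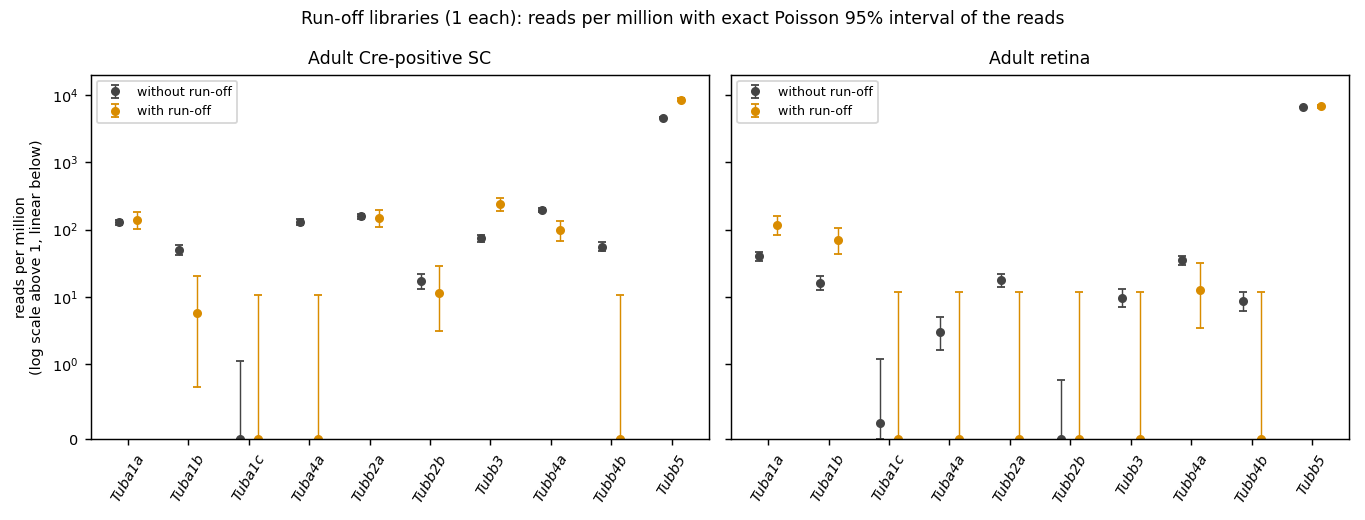
CPM of each isotype in the adult libraries without (dark) and with (orange) run-off, for Cre-positive SC and retina, on an axis that is logarithmic above 1 and linear below. Bars are exact Poisson 95% intervals of the reads of 1 library. In SC the orange point of Tubb3 lies above the dark one (240.4 against 74.2) and those of Tuba4a and Tubb4b are at 0.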

How the data were processed

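Per the labels, ribosome-bound mRNA was immunopurified, reverse-transcribed and amplified by PCR. The authors mapped reads to mm10 with TopHat2 2.0.12, deposited FPKM from Cufflinks 2.2.1 for 24 libraries and deposited read counts from HTSeq 0.6.1p1 for 4 run-off libraries. Groups and replicate numbers came from the labels, which do not say whether replicates are separate animals, so p-values measure the spread between these libraries. Isotypes and gene lists were chosen with earlier results of these data known.

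Genes at 1 FPKM or more in at least 2 libraries of a fit were tested on log2(FPKM + 1) with limma 3.58.1 (trend, robust with statmod 1.5.0, R 4.3.3), two-sided, with Benjamini-Hochberg adjustment over all genes and a threshold of 0.05. One fit held all 16 SC libraries, one the 8 retina libraries and one the 16 of Cre-positive SC and retina. The authors' NOISeq test on counts was not used here. The method was tested on simulated data. Genes with a missing entry (Actb, Draxin, Gnb1 and Hsf2) were left out of the tests. Annotation, lengths and transcript sequences were from GENCODE on GRCm38.

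All 10 isotypes are named. Of the lists of other tubulin, folding and modifying genes, up to 4 per comparison with the smallest p were named, and for Tuba1a and Tubb3 the 5 genes of highest correlation over genes at 1 FPKM or more in at least 4 libraries. Of these, 1 gene is not reported here, nor are the coding ends of alpha members. Run-off reads have exact intervals (scipy 1.17.1).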

Additional observations from a re-analysis of the deposited data

Results flagged for a closer look

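The change with stage differed between Cre-positive and Cre-negative SC for 2 isotypes, by the interaction term of the limma fit with adjustment over all genes. From E17.5 to P0.5 the step was larger in Cre-positive SC for Tubb4a (8.55, SE 2.53, adjusted p = 0.0282) and Tubb4b (6.55, SE 1.27, adjusted p = 0.00312), both on the log2(FPKM + 1) scale. From P0.5 to P7.5 it was lower for Tubb4b (-6.94, SE 1.27, adjusted p = 0.00256). The first step of Tubb4a passed under 3 of 13 alternatives and that of Tubb4b under 12 of 13, and with TPM scaling neither did (adjusted p = 0.114 and 0.0543). The second step of Tubb4b passed under 13 of 13. Each rests on 2 libraries per group, and both steps share the P0.5 libraries.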

How the results depend on the processing

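Numbers of isotypes called are given here out of 10, with limma. For Cre at P0.5 the count of 3 became 1 with TPM scaling, 5 in that stage's 4 libraries alone and 1 to 2 when single libraries were left out. For Cre at P7.5 leaving out single libraries gave 0 to 1, and averaged over stages 1 to 2, against 0 with a pseudocount of 0.1 or TPM scaling. In Cre-positive SC, the step to P0.5 (2) gave 1 with TPM scaling and 1 to 3 without single libraries, and the step to P7.5 (4) gave 2 and 1 to 5. For the interactions, E17.5 to P0.5 (2) gave 1 with a pseudocount of 0.1, 1 with no filter, 0 with TPM scaling and 1 to 3 without single libraries, P0.5 to P7.5 (1) gave 1 to 2, and P7.5 to adult (0) gave 0 to 1. Against retina at P0.5, the count of 3 became 0 with a pseudocount of 0.1, 0 with TPM scaling, 7 in that stage's libraries alone and 0 to 1 without single libraries. The cause was not tested. A fit that leaves a group with 1 library assumes that it varies like the others. TPM scaling moved the median difference of all genes from 0.69 to 0.46 for E17.5 to P0.5 and from 1.10 to 1.40 against retina at P0.5. The only reversal was Tubb5 for Cre at P0.5, at -0.022 with TPM scaling against 0.59. In retina, 3 isotypes were lower in CPM with run-off, against 8 in raw reads. In Cre-positive SC at P0.5, Tuba1a made up 98.1% of alpha FPKM and its group of near-identical copies 100%, and Tubb2b 3.0% of beta FPKM, or 19.99% without Tubb5, a choice made after seeing the data.

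Replicate numbers are shared between groups, but deviations of same-numbered Cre-positive and Cre-negative libraries correlated with r of 0.39, 0.43, 0.32 and 0.06 at the 4 stages, and the labels do not tie a number to a litter or day. As the adult value is under 0.1, the numbers were not taken as pairs. With the replicate block, 4 isotypes were called for Cre at P0.5 (Tuba1b added, adjusted p = 0.0104), 5 for P0.5 to P7.5 and 4 against retina at P0.5, and counts elsewhere did not move.

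Groups of 2, listed zeros of genes that every cell uses, shared sequence of near-identical copies and an unknown depth limit each value.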
